A study of Mus musculus with 12 samples.

Results

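Chil3, Marco, Mrc1 and Msr1, 4 of the 770 genes on an immune gene panel, were taken by name as markers of scavenging and alternatively activated macrophages and were followed in every sample of a mouse study of hepatocellular carcinoma. They were selected on their counts in these same samples, with earlier results in view, so their levels and fold changes are given as a description, with no p-value. The series concerns corticosteroid premedication before immune checkpoint blockade. RNA came from 12 primary tumour specimens, fixed in formalin and embedded in paraffin, in 4 groups of 3. The isotype group received isotype antibody, and the dICB group received anti-PD-1 together with anti-CTLA4. Another 2 groups received dICB with Dexa at 10 mg or at 200 mg. Dexa is not spelled out in the labels, the doses carry no body weight or schedule, and no group received Dexa alone. The sources used here do not give strain, age or the way the tumours arose. Whether each sample came from its own animal is not stated either, so the spread within a group, and any p-value, may in part be technical.

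Macrophages clear particles, lipids and dying cells through scavenger receptors. Msr1 and Marco encode trimeric class A scavenger receptors that bind modified lipoproteins, bacteria and debris, and Marco is expressed by restricted sets of tissue macrophages. Mrc1 encodes the mannose receptor CD206, an endocytic C-type lectin that is also made by sinusoidal endothelium in the liver. Chil3 encodes the secreted chitinase-like protein Ym1, which lacks chitinase activity, is induced in mouse macrophages by IL-4 and IL-13 through STAT6, and is also made by neutrophils and some monocytes. In bulk tumour RNA, fewer cells of a type and less RNA per cell cannot be told apart.

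The 4 genes lie on 4 chromosomes of the mouse build GRCm38.p6. Chil3 spans chr3:106147554-106167564, Marco chr1:120474538-120505024, Mrc1 chr2:14229414-14332023 and Msr1 chr8:39543232-39642750. Chil4, which encodes the closely related Ym2, lies 33926 bases from Chil3 at chr3:106201491-106219479. It has no probe of its own among the panel's names, and a Chil3 probe could pick up its transcript, so a Chil3 count may hold Chil4 RNA. The 250 bases before the annotated starts of Chil3 (chr3:106167565-106167814, minus strand), Chil4 (chr3:106219480-106219729, minus strand), Marco (chr1:120505025-120505274, minus strand) and Mrc1 (chr2:14229164-14229413, plus strand), from RefSeq, are shown to set the Chil3 region beside that of its near-copy, and beside those of Marco, whose levels varied widely too, and Mrc1, whose levels varied less. Capitals mark motif matches.

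Chil3: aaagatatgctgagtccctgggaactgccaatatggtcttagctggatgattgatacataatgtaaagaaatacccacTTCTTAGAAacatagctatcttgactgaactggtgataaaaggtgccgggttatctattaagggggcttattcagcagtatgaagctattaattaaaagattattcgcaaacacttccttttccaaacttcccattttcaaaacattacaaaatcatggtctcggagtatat
Chil4: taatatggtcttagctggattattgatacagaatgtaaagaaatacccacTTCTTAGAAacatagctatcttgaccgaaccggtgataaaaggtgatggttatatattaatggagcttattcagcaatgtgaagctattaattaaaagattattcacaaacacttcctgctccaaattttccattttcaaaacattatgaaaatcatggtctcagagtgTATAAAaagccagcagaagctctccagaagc
Marco: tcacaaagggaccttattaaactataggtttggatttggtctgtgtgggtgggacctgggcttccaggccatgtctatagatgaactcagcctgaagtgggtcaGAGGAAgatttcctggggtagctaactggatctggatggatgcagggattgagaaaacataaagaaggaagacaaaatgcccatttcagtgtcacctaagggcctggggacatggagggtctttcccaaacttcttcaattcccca
Mrc1: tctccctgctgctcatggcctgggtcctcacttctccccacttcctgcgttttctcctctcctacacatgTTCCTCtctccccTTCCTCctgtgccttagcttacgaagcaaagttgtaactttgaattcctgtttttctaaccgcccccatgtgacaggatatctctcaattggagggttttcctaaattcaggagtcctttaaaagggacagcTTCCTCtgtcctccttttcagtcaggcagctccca

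Over 221 aligned bases the Chil3 and Chil4 windows shared 202, or 91.4%. Bases facing a gap were left out. Aligned in the same way, Chil3 shared 68.45% with Marco and 74.87% with Mrc1, and Marco shared 69.12% with Mrc1. The Chil3 and Chil4 windows hold the STAT element TTCNNNGAA, 172 bases upstream of the start in Chil3 and 200 in Chil4. That element occurs in 7.02% of 32851 mouse promoters searched on both strands. Marco holds 1 copy and Mrc1 3 copies of GAGGAA, the core bound by the myeloid factor PU.1, which 23.3% of the promoters hold. The capitals in Mrc1 read TTCCTC because its copies lie on the opposite strand. Chil4 alone of the 4 windows held a TATA box, TATAAA, found in 12.4% of promoters. The Chil3 window stops at the bases that line up with the first letters of that box. Its lack of a match there follows from where its start is annotated and shows no difference from Chil4. The STAT element with a spacer longer by 1 base, the AP-1 element TGANTCA and the glucocorticoid receptor element had no match in these 4 windows; 5.85%, 6.75% and 0.387% of promoters hold them. These motifs were chosen after the windows had been read. A match describes letters, not binding.

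Each sample held between 252994 and 428944 gene counts. The background limit, the mean of the 8 negative control probes plus 2 standard deviations, ran from 18.1 to 38.1 counts. Chil3, Mrc1 and Msr1 lay above it in all samples, and Marco in all but 2 of the isotype samples. Levels are given as normalised counts, scaled by TMM to a common library of 357620.2, with background left in. A sample code reads ICI7 or ICI10, with no stated meaning. All isotype samples carried 7 and all dICB samples 10, so the code and the antibodies cannot be told apart in that comparison. In the 10 mg group replicate 2 carried 10, and in the 200 mg group replicates 1 and 2 did. Replicate 1 of dICB stood apart by its neutrophil genes (S100a8, a neutrophil granule protein, at 15823 normalised counts against a median of 253.9 over the 12 samples). Replicate 2 of the 10 mg group stood apart from its group mates. Csf1r, Emr1 and Cd68, which define macrophages, were above background in 12 of 12 samples. Of 9 Kupffer cell markers 3 were on the panel. Timd4 was above background in 0 of 12, Cd163 in 5 and C6 in 9. Lyve1, a marker of liver sinusoidal endothelium, was above it in 0 of 12. Of the other endothelial genes, Pecam1, Cdh5 and Eng were above it in 12 of 12 and Tek in 2. Of 12 epithelial or hepatocyte markers, 3 were on the panel, and the hepatocyte-defining ones, such as Alb, were not, so the hepatocyte label could not be checked.

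Chil3, the chitinase-like gene, had the widest range of the 4. Its normalised counts were 35.7, 36.7 and 48.2 in isotype replicates 1 to 3, and 393, 194 and 81.9 in dICB. They were 168, 252 and 98.4 with Dexa at 10 mg, and 431, 1178 and 335 at 200 mg. Every isotype sample lay below every other sample, and replicate 2 of the 200 mg group lay far above the rest. The highest level was 33.0 times the lowest. Only 4 of the 635 tested genes, those averaging 20 counts or more, varied more over the 12 samples on the log2 scale (SD 1.55). Group means were 40.2 ± 6.96 in isotype, 223 ± 158 in dICB, 173 ± 77.1 at 10 mg and 648 ± 461 at 200 mg (SD, n = 3 each). In that order of levels, the 200 mg and dICB groups overlapped, as did the dICB and 10 mg groups, and the 10 mg group lay clear of isotype. The replicate coefficient of variation in isotype, 17.3%, was close to the 16.1% that counting error alone gives. The raw isotype counts of 38, 35 and 43 lay near background limits of 26.1, 30.3 and 32.3, so this figure and fold changes against isotype include background. In dICB it was 70.7% against 9.06% from counting.

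Marco, a class A scavenger receptor, was near background without the antibodies. Its counts were 40.4, 26.2 and 26.9 in isotype and 103, 259 and 70.0 in dICB. They were 52.3, 122 and 43.5 at 10 mg, and 123, 154 and 178 at 200 mg. The isotype samples were again the lowest, and replicates 2 and 3 of isotype did not exceed their own background limit, so fold changes against isotype are understated. The means were 31.2 ± 7.97, 144 ± 101, 72.6 ± 43.0 and 151 ± 27.6 in the same order of groups (SD, n = 3). The 200 mg and dICB groups overlapped, as did dICB and 10 mg, while each of the 3 treated groups lay clear of isotype. At 10 mg the gap was narrow, 43.5 in replicate 3 against 40.4 in isotype replicate 1. The raw counts of these samples were 50 and 43 and their negative control means 23.25 and 16.5. With background subtracted before scaling, their order reverses, so the gap does not hold. Marco ranked 13 of 635 genes in spread (SD 1.06 on the log2 scale).

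Mrc1, the mannose receptor, varied less. Its counts were 385, 205 and 188 in isotype, 301, 244 and 298 in dICB, 253, 412 and 183 at 10 mg, and 325, 325 and 504 at 200 mg. A high and a low sample occurred in both the isotype and the 10 mg groups, and neighbouring groups overlapped at each step of the order. The means were 259 ± 109 in isotype, 281 ± 32.4 in dICB, 282 ± 117 at 10 mg and 385 ± 103 at 200 mg (SD, n = 3). The highest sample was 2.75 times the lowest, and 28.0% of the log2 variance lay between groups, below the 35.6% of the median gene.

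Msr1, the other class A receptor, covered a similar span, 2.68-fold from lowest to highest. Its counts were 253, 172 and 147 in isotype, 234, 314 and 186 in dICB, 240, 183 and 214 at 10 mg, and 284, 234 and 394 at 200 mg. All groups overlapped. The means were 191 ± 55.7, 244 ± 64.4, 213 ± 28.5 and 304 ± 81.7 (SD, n = 3). Between groups lay 43.3% of the log2 variance of Msr1, against 72.9% for Marco and 79.8% for Chil3.

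**Figure D1:**
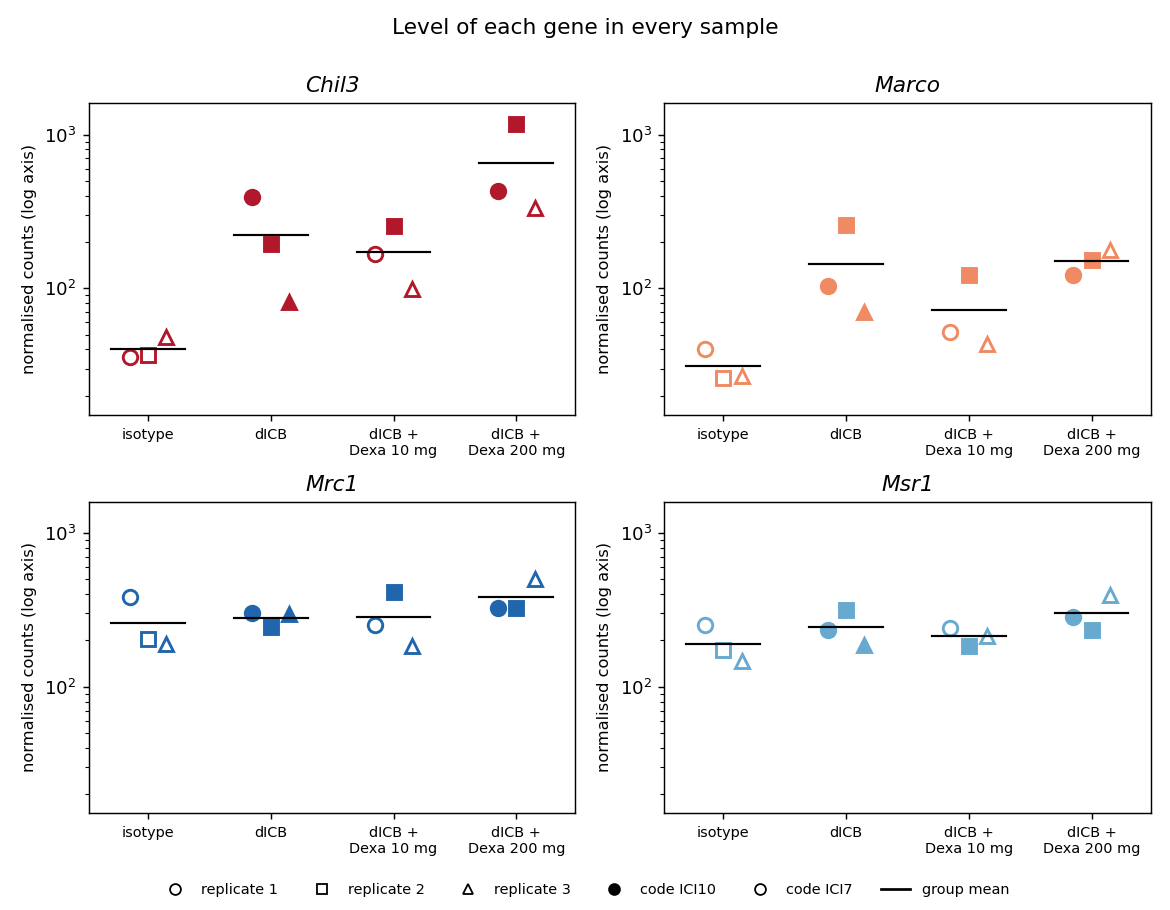
Normalised counts (log axis, background left in) of Chil3, Marco, Mrc1 and Msr1 in each of the 12 samples, by group. Symbols give the replicate, filled symbols the code ICI10 and open ones ICI7, and bars the group means; the isotype samples of Chil3 (35.7 to 48.2) and Marco (26.2 to 40.4) lie below all other samples, while the groups of Msr1 overlap.

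The first question was how the dICB group differed from isotype in these genes. Chil3 and Marco were higher in every dICB sample than in any isotype sample, and Mrc1 and Msr1 overlapped. The log2 fold change was 2.48 ± 0.60 for Chil3 (SE, from edgeR) and 2.21 ± 0.50 for Marco. For Mrc1 it was 0.11 ± 0.34 and for Msr1 0.36 ± 0.28. Of the 635 genes tested, 9.92% were higher without overlap in this comparison. No gene passed edgeR's quasi-likelihood test at an adjusted p of 0.05 (0%); 127 (20%) had an unadjusted p under 0.05, and DESeq2 passed 31 (4.88%). Which of the 4 genes passed is not given, since they were selected on these counts. Without dICB replicate 2, its highest sample, the Marco value was 1.46. Subtracting background raised it to 3.67, and with the sample code as a covariate the Chil3 value was 1.38. Isotype and dICB share no code, so that covariate rests on the Dexa groups and assumes the same code effect in every group. It does not separate the code from the antibodies. The Mrc1 value took the opposite sign without isotype replicate 2 or 3, the lowest being -0.09 without replicate 3.

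Adding Dexa at 10 mg to dICB gave small or unsteady differences. Against dICB the log2 fold change was -0.38 ± 0.56 for Chil3, -1.003 ± 0.47 for Marco, 0.01 ± 0.34 for Mrc1 and -0.20 ± 0.28 for Msr1. All 4 genes overlapped between the groups. Genes without overlap made up 3.78% on the higher side and 4.09% on the lower. The Marco difference was -0.21 without dICB replicate 2 and -1.59 without replicate 2 of the 10 mg group. The Chil3 value was 0.36 without dICB replicate 1, that of Msr1 0.05 without dICB replicate 2, and that of Mrc1 -0.36 without replicate 2 of the 10 mg group. All dICB samples carried code 10, and so did only replicate 2 of the 10 mg group. With the code as a covariate Chil3 was at 0.29 and Msr1 at -0.51. Within code 10 Marco was at -0.25 and Mrc1 at 0.55. By edgeR 0% of the genes passed the threshold here, with 60 (9.45%) at an unadjusted p under 0.05, and DESeq2 passed 0.

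Adding 200 mg gave the highest Chil3 levels. Against dICB alone its log2 fold change was 1.53 ± 0.56, and it was 0.78 without replicate 2 of the 200 mg group and 2.20 without dICB replicate 1. Chil3 overlapped, since dICB replicate 1, at 393, exceeded replicate 3 of the 200 mg group, at 335. The Marco value was 0.06 ± 0.46 and ran from -0.27 to 0.78 as single samples were left out. Mrc1, at 0.45 ± 0.34, was the only one of the 4 whose groups did not overlap, as were 5.04% of the genes on the higher side. Its value was 0.21 without replicate 3 of the 200 mg group. Msr1 was at 0.31 ± 0.28, and at 0.08 without that same sample. EdgeR passed 0% of the genes, 54 (8.5%) had an unadjusted p under 0.05, and DESeq2 passed 3 (0.472%).

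Between the doses, Chil3 and Marco were higher in all 3 samples at 200 mg than in any at 10 mg, where 9.61% of the genes were higher without overlap. The log2 fold change of the 200 mg over the 10 mg group was 1.90 ± 0.57 for Chil3, 1.06 ± 0.47 for Marco, 0.45 ± 0.34 for Mrc1 and 0.51 ± 0.28 for Msr1. Without replicate 2 of the 200 mg group, Chil3 was at 1.09. Without replicate 2 of the 10 mg group, Marco was at 1.65. Within code 7 Marco was at 1.88 and within code 10 at 0.17, and Mrc1 was at 1.19 and -0.35; each of these rests on 3 samples. EdgeR passed 0% of the genes, with 76 (12%) at an unadjusted p under 0.05, and DESeq2 passed 0.

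Set against isotype, the 10 mg group had log2 fold changes of 2.10 ± 0.60 for Chil3, 1.21 ± 0.50 for Marco, 0.12 ± 0.34 for Mrc1 and 0.16 ± 0.28 for Msr1. Chil3 and Marco did not overlap, as did 8.03% of the genes on the higher side. For Marco the gap was narrow, 43.5 against 40.4, with background left in, and does not hold once background is subtracted. Without replicate 2 of the 10 mg group Marco was at 0.59 and Mrc1 at -0.27. Mrc1 was at 0.55 without isotype replicate 1, and Msr1 at 0.02 without isotype replicate 3. By edgeR 0% of the genes passed, with 53 (8.35%) at an unadjusted p under 0.05; DESeq2 passed 4 (0.63%).

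The 200 mg group against isotype held the largest values of the 6 comparisons for all 4 genes: 4.01 ± 0.64 for Chil3, a 16.1-fold difference, 2.27 ± 0.51 for Marco, 4.82-fold, 0.57 ± 0.34 for Mrc1 and 0.67 ± 0.28 for Msr1. Chil3 and Marco were without overlap, where 20.9% of the genes were on the higher side and 23.6% on the lower. Chil3 was at 3.23 without replicate 2 of the 200 mg group. After background subtraction Chil3 was at 4.74 and Marco at 4.06. This was the only comparison with genes past the edgeR threshold: 84 of 635 (13.2%), of which 39 were higher (6.14%) and 45 lower; 32.3% had an unadjusted p under 0.05. The split depended on the scaling, with 55 higher and 2 lower with positive control factors and 161 higher and 5 lower with housekeeping factors. Those factors shifted the median gene from 0.03 to 0.34 and 0.55, and Chil3 from 4.01 to 4.35 and 4.55. Without isotype replicate 3 the 84 became 0. The comparisons share their isotype, dICB and Dexa samples and are not independent of each other.

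**Figure D2:**
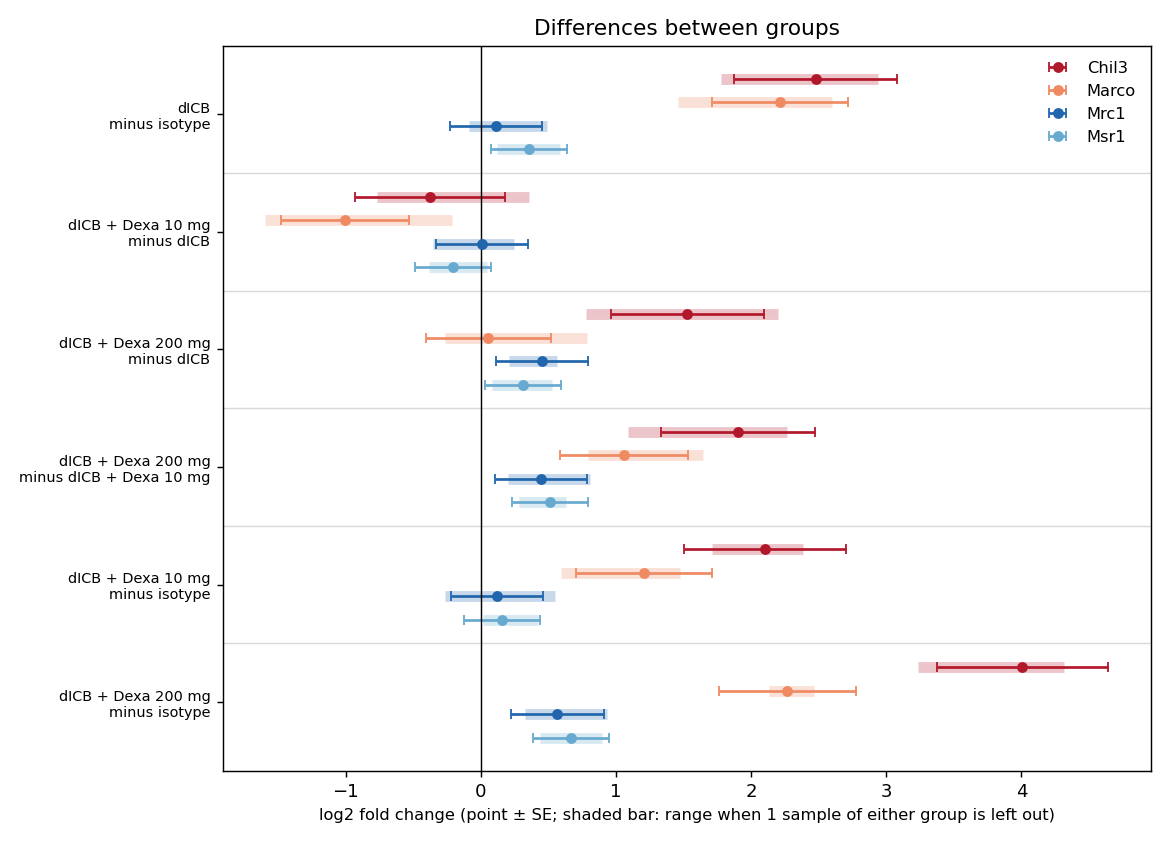
Log2 fold change of each of the 4 genes in the 6 comparisons. Points with bars are the edgeR estimate ± SE, and shaded bands the range as single samples of either group were left out; the Chil3 and Marco bands lie above 0 in all 3 comparisons with isotype, and the Mrc1 and Msr1 points lie within 1 log2 unit of 0 in all 6.

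The other macrophage genes bear on what these values stand for. Of 18 pan-macrophage genes listed, 14 were on the panel and tested. At 200 mg against isotype 3 rose and 1 fell (edgeR, adjusted p below 0.05), where 6.14% of all genes tested rose, with a median log2 fold change of 0.55 against 0.03 over all genes. Cd68, a lysosomal protein of macrophages, rose by 0.85 ± 0.20 (adjusted p = 0.0177), Itgam, the integrin CD11b, by 1.39 ± 0.39 (adjusted p = 0.0353) and Lyz2, lysozyme, by 1.73 ± 0.45 (adjusted p = 0.0256). Cx3cr1, the fractalkine receptor, fell by 1.19 ± 0.26 (adjusted p = 0.0171). Summed over the 14 genes, levels ran from 9387 to 19891 in isotype, from 11879 to 25400 in dICB, from 16885 to 24874 at 10 mg and from 26853 to 39338 at 200 mg. Lyz2, at 7186 ± 4544 in isotype and 23853 ± 6142 at 200 mg (SD, n = 3), made up most of the sums in those groups. The sums there thus mainly follow that gene. In none of the other 5 comparisons did a listed macrophage gene pass in the same fit. None of the 14 genes passed without isotype replicate 3, without replicate 2 or 3 of the 200 mg group, or with the sample code as a covariate, and Cx3cr1 alone did without isotype replicate 2. Cx3cr1 missed the threshold with positive control or housekeeping factors.

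Epithelial and housekeeping genes were lower in the same comparison. Lists of other cells were mixed. Of the T cell genes 7 of 8 were higher, as were 4 of 5 neutrophil and 3 of 4 dendritic cell genes. Of 10 endothelial genes 5 were higher and 5 lower (median -0.11), and Mcam fell by 1.00 ± 0.24 (edgeR adjusted p = 0.0188). Mcam missed the threshold with positive control or housekeeping factors. Of 5 fibroblast genes 2 were higher and 3 lower (median -0.10), and the 1 B cell gene tested was lower. The 3 epithelial genes had a median of -0.84, and 2 fell: Epcam, an epithelial adhesion molecule, by 0.84 ± 0.23 (edgeR adjusted p = 0.0302), and Egfr, the growth factor receptor, by 0.94 ± 0.27 (adjusted p = 0.0383). Their summed levels were 602 to 755 in isotype, 336 to 620 in dICB, 496 to 750 at 10 mg and 362 to 387 at 200 mg. Of the 20 housekeeping genes 19 were lower, 6 fell and 1 rose, with a median of -0.56. With positive control factors the medians were -0.49 and -0.20, with housekeeping factors -0.29 and -0.02, and 0 epithelial or housekeeping genes fell under either. The part of these genes in the macrophage values was not tested.

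Taking each gene relative to the mean log2 level of those 14 genes in the same sample separated the 4. On this scale values are differences of mean log2 levels, which differ somewhat from the fitted fold changes above. The mean of the 14 genes was 0.61 higher at 200 mg than in isotype. For Msr1 the difference between those groups went from 0.67 to 0.06, and its SD over the 12 samples from 0.39 to 0.16. For Mrc1 it went from 0.61 to -0.003, with an SD of 0.38 against 0.45. For Marco it went from 2.22 to 1.61 and for Chil3 from 3.73 to 3.12. Across the 12 samples the correlation with the pan-macrophage mean was 0.93 for Msr1 (Spearman 0.92), 0.71 for Marco (0.72), 0.67 for Chil3 (0.65) and 0.55 for Mrc1 (0.47). These correlations share libraries and groups and carry no p. With the neutrophil genes they were 0.27 for Chil3, 0.11 for Marco, 0.005 for Mrc1 and 0.06 for Msr1. The neutrophil genes stood high only in dICB replicate 1, whose summed level was 18305 against 339 to 718 in the other 11 samples. That sample was the highest of dICB for Chil3, at 393, and the neutrophil part in its value was not tested; the levels of Chil3 at 200 mg, 335 to 1178, were found with summed neutrophil levels of 377 to 648.

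**Figure D3:**
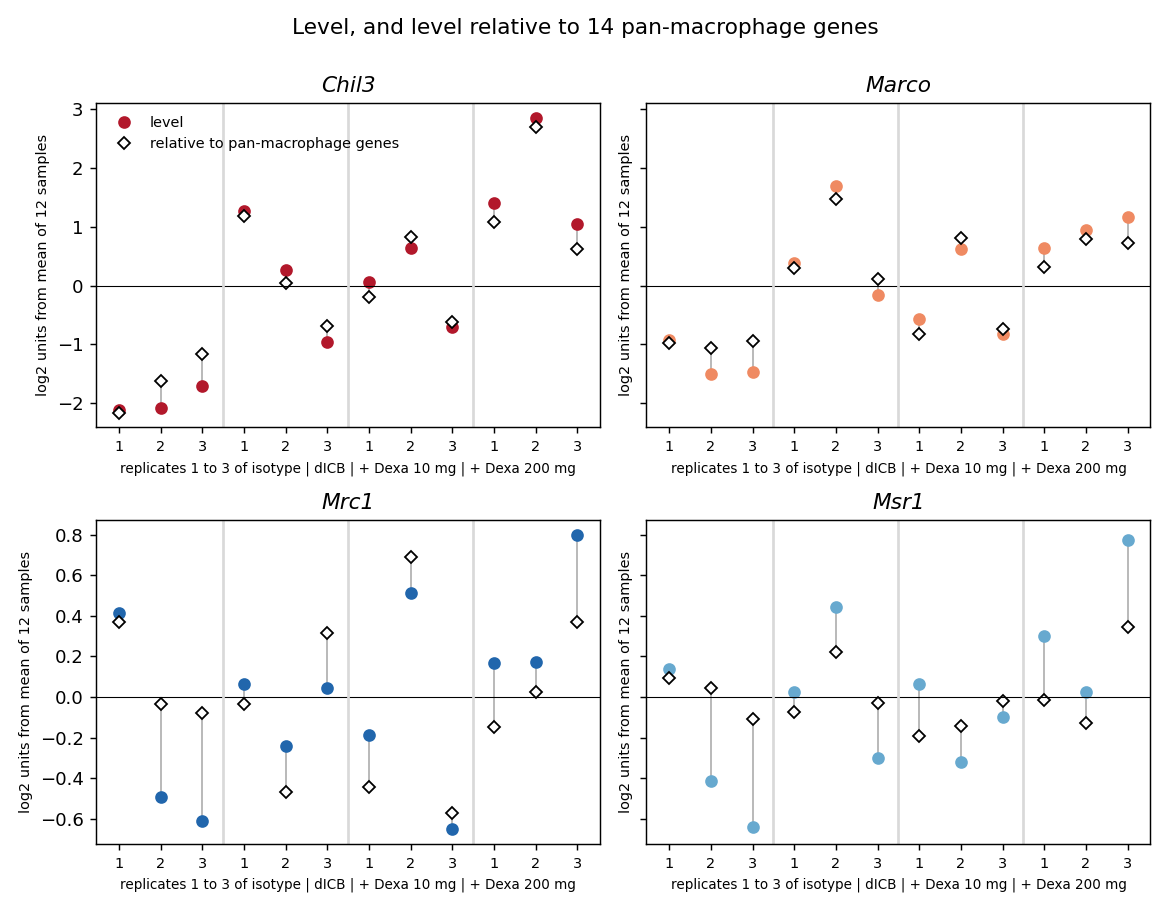
Log2 level of each gene by sample, as a difference from its mean over the 12 samples (filled), and the same relative to 14 pan-macrophage genes (open). The open points of Msr1 lie closer to 0 than the filled ones in most samples (SD 0.16 against 0.39), while those of Chil3 keep their order between isotype and 200 mg; the axes of the upper and lower panels differ.

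The list of other scavenger receptors held 16 genes, of which 7 were tested. At 200 mg against isotype 1 rose, Cd68, which is on the pan-macrophage list too, and 0 fell, with a median of 0.34. Cd36, a class B receptor for oxidised lipoproteins and fatty acids, was at 1.54 ± 0.60 (adjusted p = 0.102 by edgeR). Cd14, the lipopolysaccharide co-receptor, was at 2.56 ± 0.75 in dICB against isotype (adjusted p = 0.105) and at 0.39 without dICB replicate 1 and replicate 2 of the 10 mg group. Of the Kupffer cell list 2 genes were tested, C6 and Cd163, and neither passed in any comparison. Cd163, the haemoglobin scavenger receptor, was at 0.27 ± 0.35 at 200 mg against isotype.

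Of 19 genes of alternative activation other than the 4, 12 were tested. At 200 mg against isotype 4 rose and 0 fell, against 6.14% of all genes that rose, with a median of 0.72 against 0.03. Without isotype replicate 3 none passed, and without isotype replicate 2 or replicate 2 of the 200 mg group 2 did. Arg1, the arginase that competes with nitric oxide synthase for arginine, rose by 2.01 ± 0.32 (edgeR adjusted p = 0.00665). Clec7a, the beta-glucan receptor dectin-1, rose by 1.46 ± 0.27 (adjusted p = 0.0107). The chemokines Ccl17 and Ccl22, both ligands of Ccr4 and also made by dendritic cells, rose by 2.40 ± 0.46 and 1.61 ± 0.31 (adjusted p = 0.0125 and 0.0127). Of the classical activation genes, 2 of 9 tested rose, with a median of 0.63, and 0 passed without isotype replicate 3. Nos2, the inducible nitric oxide synthase, rose by 2.45 ± 0.38 (adjusted p = 0.00665) and Cd86, a costimulatory ligand, by 0.79 ± 0.22 (adjusted p = 0.0353). Of the IL-4 and IL-13 axis 9 genes were tested and 0 passed (median 0.24); Il2rg, the shared cytokine receptor chain, was at 0.91 ± 0.33 (adjusted p = 0.0792) and Il4ra, the IL-4 receptor chain, at 0.67 ± 0.33 (adjusted p = 0.182). These lists were chosen with results of these samples known and are no independent evidence.

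Arg1 and Clec7a were also the leading alternative activation genes in dICB against isotype, at 1.66 ± 0.32 and 1.16 ± 0.26, with adjusted p-values of 0.0593 and 0.0992 by edgeR. At 10 mg against dICB, Arg1 was at -0.98 ± 0.31 (adjusted p = 0.402), and between the doses it was at 1.32 ± 0.31 (adjusted p = 0.299). Marco had the same signs as Arg1 in those comparisons. The 12 tested genes of the list did not all share them. At 10 mg against dICB 8 were higher and 4 lower (median 0.36). Between the doses 9 were higher and 3 lower (median 0.20), with Fn1, of the same list, at -0.81 ± 0.26 (edgeR adjusted p = 0.299). Ccl17, at 1.85 ± 0.45 for 200 mg against dICB (adjusted p = 0.267), had the same sign as Chil3, at 1.53. The adjusted p-values in this paragraph missed the threshold, which does not show that the levels were equal.

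Chil3 and Marco were the most alike pair of the 4 over the samples (Pearson 0.80, Spearman 0.80, n = 12), and the value was 0.81 without the 2 samples farthest from the median of Chil3. After group means were removed it was 0.37. The other pairs lay between 0.45 and 0.70. Relative to the pan-macrophage genes the Chil3 and Marco value was 0.72 and that of Mrc1 with Msr1 0.08.

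Among the other 631 tested genes, each of the 4 had its own nearest patterns, as Pearson correlations of log2 levels over 12 samples with no p. Nearest to Chil3 were Gbp5, an interferon-induced guanylate-binding protein, at 0.96, Nos2 at 0.96, Btk, a kinase of B cells and myeloid cells, at 0.91, and the chemokines Ccl9 and Ccl19, both at 0.90. Nos2 had 62.1 ± 0.65 normalised counts in isotype, 268 ± 120 in dICB, 185 ± 67.1 at 10 mg and 342 ± 112 at 200 mg (SD, n = 3), and its correlation with Chil3 within groups was 0.96. Nearest to Marco were Gzmb, the cytotoxic protease granzyme B, at 0.96, Gbp5 at 0.90, Arg1 at 0.90, and H2-K1, a class I MHC chain, and Lcp1, a leukocyte actin-bundling protein, both at 0.89. Gzmb had 57.4 ± 6.39, 125 ± 46.8, 110 ± 44.7 and 139 ± 26.5 counts in the same order of groups, and a within-group value of 0.94 with Marco.

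Nearest to Mrc1 were Ccl7, a monocyte chemokine, at 0.86, Ddx60, an interferon-induced helicase, at 0.84, Serping1, the C1 inhibitor, at 0.83, and Trem2, a lipid receptor of macrophages, and Il3ra, the IL-3 receptor chain, both at 0.82. Nearest to Msr1 were Emr1, the macrophage marker F4/80, at 0.90, Pik3cg, a leukocyte PI3-kinase subunit, at 0.90, Cyfip2, an actin regulator, at 0.89, Cxcl12, a chemokine of stromal cells, at 0.89, and Mertk, a receptor for dying cells, at 0.88. Emr1 and Mertk are on the pan-macrophage list. Leaving out dICB replicate 1 and replicate 2 of the 10 mg group kept 3 of these 5 genes among the nearest of Chil3, 2 of those of Marco, 0 of those of Mrc1 and 2 of those of Msr1.

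**Figure D4:**
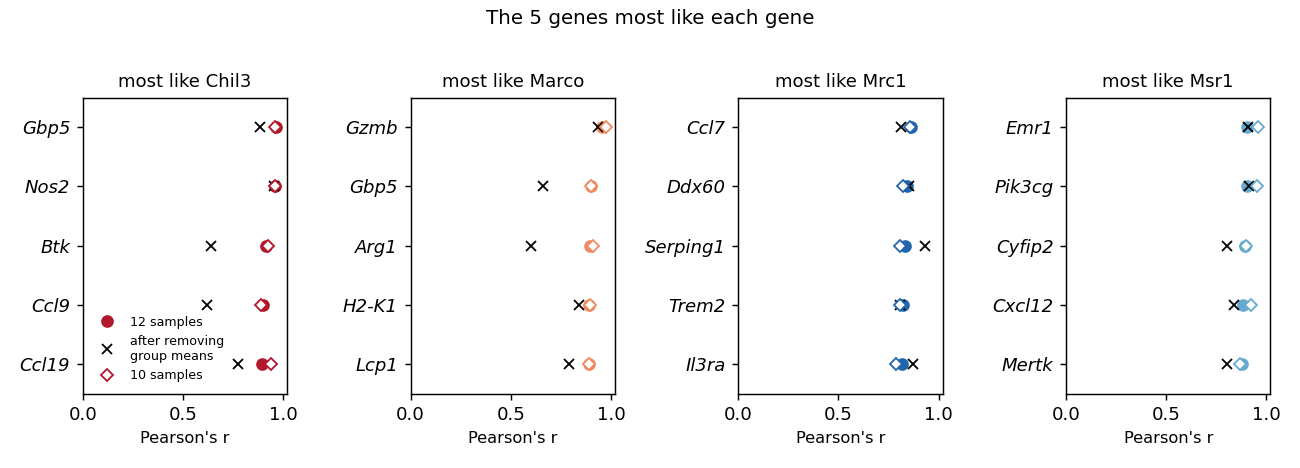
Pearson correlation over samples between each of the 4 genes and the 5 tested genes nearest to it, over 12 samples, after removing group means, and over 10 samples without dICB replicate 1 and replicate 2 of the 10 mg group. Nos2 stays near 0.96 with Chil3 and Gzmb at 0.94 or above with Marco in all 3 forms, whereas Btk and Ccl9 with Chil3, and Gbp5 and Arg1 with Marco, fall below 0.7 once group means are removed.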

How the data were processed

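Whole-number counts per probe were deposited by the authors, with no normalisation, for 784 probes (770 genes, 6 positive and 8 negative controls). Total RNA was extracted with a Qiagen FFPE kit, per the labels' protocols. The sources used here do not name the instrument, the panel or the counting software. Of the 770 names, 754 were current symbols of the GRCm38.p6 table, 8 were synonyms and 8 matched nothing.

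Tests were run with edgeR 4.0.16 (R 4.3.3). A gene had to average 20 counts over the 12 samples to be tested (635 did, all 4 members included, and 135 did not). Libraries were scaled by TMM. A single quasi-likelihood fit, with 1 mean for each group, took in all samples (8 residual degrees of freedom). Tests of the 6 comparisons were two-sided, and Benjamini-Hochberg adjustment ran over the 635 genes of a comparison, with a threshold of 0.05. Every adjusted p comes from this test; other p-values are named. Standard errors are approximate. Log2 levels used a prior count of 2. Correlations are descriptions. The fit was tested on simulated data.

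The members, lists and tests were chosen with earlier results of these data known. Named genes were the 4 members, the 5 genes most correlated with each, and up to 2 genes of smallest p from each macrophage list in each comparison; some of these were left out for length, and listed genes past the threshold were added after their values were seen. Same-numbered samples did not deviate together (correlations of -0.39 to 0.29), so replicate numbers only name samples. Alternatives were DESeq2 1.42.0, background subtraction with limma 3.58.1, positive control or housekeeping factors, other count minimums and prior counts, the sample code, the replicate block, single samples left out, and, added after the data were seen, differences relative to the pan-macrophage genes and counts of listed genes under these alternatives. Sequences are RefSeq's, on GRCm38.p6; 3 of the 4 members had a promoter entry.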

Additional observations from a re-analysis of the deposited data

How the results depend on the processing

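Of 456 alternative log2 fold changes of the 4 genes, 422 moved by less than 1 SD between replicates and 34 by more: 15 of Marco, 7 of Chil3, 6 of Mrc1 and 6 of Msr1. That SD is wide, at 1.04 for Chil3 in 200 mg against dICB, so a changed sign can fall within it. For 10 mg against dICB, Mrc1 went from 0.01 to -0.36 without replicate 2 of the 10 mg group. Against an SD of 0.43 this counts as less than 1 SD. The Chil3 and Marco differences from isotype kept their sign under every alternative run. Both genes were selected on these counts and, with background left in, did not overlap with isotype, so this was likely beforehand and is no support. Scaling moved the median of all genes for 200 mg against isotype from 0.03 to 0.34 (positive controls) or 0.55 (housekeeping genes). Under those factors Marco was at 2.54 and 2.79, Mrc1 at 0.79 and 1.06, and Msr1 at 0.92 and 1.18.

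Counts of genes past the threshold moved more, and causes were not tested. For dICB against isotype (0) they were 31 by DESeq2, 4 with positive control factors, 45 with housekeeping factors, 2 with no filter, 10 without dICB replicate 1 and replicate 2 of the 10 mg group together, and 0 to 45 with single samples left out (10 without dICB replicate 2, 45 without dICB replicate 3). For 10 mg against dICB (0) the range was 0 to 1. For 200 mg against dICB (0) DESeq2 gave 3, and the range was 0 to 8, with 8 without dICB replicate 2. Between the doses (0) there were 7 within code 7 and 2 without both samples that stood apart, and 0 to 0 otherwise. For 10 mg against isotype (0) DESeq2 gave 4, and the range was 0 to 0. For 200 mg against isotype (84) there were 166 with housekeeping factors, 180 from the compared groups alone, 29 with the code as covariate, 151 within code 7 and 170 without both samples that stood apart. Leaving out single samples gave 0 to 95: 0 without isotype replicate 3, 9 without isotype replicate 2, 11 without replicate 2 or 3 of the 200 mg group, and 50 without its replicate 1. With the replicate number as a block the counts were 1 for dICB against isotype, 1 for 200 mg against dICB and 84 for 200 mg against isotype; the numbers only name samples.

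Marco was near background in isotype, where 1 of 3 samples exceeded its background limit. Counts of 24 to 43 carry 95% Poisson intervals from 15.4 to 57.9, for counting error only.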
